A study of Mus musculus with 12 samples.

Results

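The glycolytic enzymes described here are the products of 10 genes, Hk1, Hk2, Gpi1, Pfkl, Pfkp, Aldoa, Pgk1, Eno1, Pkm and Ldha, which catalyze the conversion of glucose to pyruvate and lactate. They were taken from a given list by their gene symbols, not by their measured values, and all 10 were found among the 55335 genes of the count table. Polyadenylated RNA of sorted bone marrow hematopoietic stem cells (HSCs) from C57B6 mice was sequenced. Ythdc1Δ/Δ samples (KO176, KO177 and KO209) came from mice with floxed Ythdc1 alleles (fl/fl) and the Mx1-Cre transgene, in which pIpC induced the deletion, and Ythdc1+/+ samples (WT178, WT180 and WT207) from Mx1-Cre mice with intact alleles that also received pIpC. Each sample number had 2 libraries, 12 in all, whose counts were summed. The donor mice were 8 weeks old, pIpC was given in 5 injections of 300 μg, and HSCs were enriched with beads against CD117 before they were sorted. Both genotypes thus carried Mx1-Cre and received pIpC, a trigger of interferon, and interferon drives Mx1-Cre in many other cell types besides HSCs. YTHDC1, the deleted protein, is a nuclear reader of the RNA modification m6A.

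Glycolysis splits a molecule of glucose into pyruvate in the cytosol and yields ATP without oxygen, and lactate dehydrogenase then reduces pyruvate to lactate. Hexokinase, phosphofructokinase and pyruvate kinase catalyze its irreversible steps, and most steps have several isozymes encoded by separate genes. HSCs in the hypoxic marrow niche are known to rely on glycolysis, and many of these genes are targets of the hypoxia-inducible factor HIF-1.

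Many glycolytic genes have processed pseudogenes, intronless copies of their mRNA inserted elsewhere in the genome, and a read that matches a gene and its copy equally well cannot be assigned to either. A blastn search with the coding sequences found 78 annotated pseudogenes for the 10 genes, at an identity of at least 80% over at least 100 bases. Ldha had 30 of them, Eno1 and Pkm had 14 each, Aldoa had 11, Pgk1 had 8 and Gpi1 had 1. None was found for Hk1, Hk2, Pfkl or Pfkp. Copies at 98% identity or more covered the whole coding sequence of Pgk1 (1251 bases), Eno1 (1302 bases) and Pkm (1593 bases) and 62.3% of that of Gpi1, and none of that of Aldoa or Ldha. Over 1250 aligned bases Pgk1 and Pgk1-rs7 (chromosome 12) did not differ at all. Stretches of 60 coding bases are given for 3 genes beside the pseudogene that drew most reads, each at the place where the pair differed most, with the differing bases in capitals.

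Eno1: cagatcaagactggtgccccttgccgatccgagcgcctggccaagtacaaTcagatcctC
Gm4735: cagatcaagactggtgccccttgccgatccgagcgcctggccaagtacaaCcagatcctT
Pkm: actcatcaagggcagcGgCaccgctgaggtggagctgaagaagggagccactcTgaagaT
Gm6560: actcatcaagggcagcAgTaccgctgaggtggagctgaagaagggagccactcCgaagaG
Gapdh: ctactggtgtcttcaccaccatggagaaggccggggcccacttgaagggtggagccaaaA
Gm13394: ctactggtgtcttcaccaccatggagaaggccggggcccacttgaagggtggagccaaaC

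The Eno1 stretch spans bases 1174 to 1233 of the coding sequence, counted from 1 at its first base, and holds 2 of the 5 differences between Eno1 (chromosome 4) and Gm4735 (chromosome 2). The longest stretch of that pair without a difference had 725 bases. The Pkm stretch spans bases 366 to 425 and holds 4 of the 26 differences between Pkm (chromosome 9) and Gm6560 (chromosome 5), whose longest identical stretch had 195 bases. In spite of these copies, few counts went to the pseudogenes of the 10 genes. Gm4735 had 3901 counts over the 6 samples, 1.08% of the 359608 counts of Eno1. Gm6560 had 5828 counts, 1.19% of the 489141 counts of Pkm, and Pgk1-rs7 had 828 counts, 1.01% of the 82222 counts of Pgk1. All pseudogenes of Ldha together had 3807 counts, 0.837% of those of Ldha, most of them in Ldha-ps2 (2585 counts) and Gm9247 (787 counts). Gm1840, the copy of Gpi1, had 590 counts, and the 11 copies of Aldoa had 147. When the counts of its pseudogenes were added to each gene, the median log2 fold change of the 10 genes was 0.20, as without them. Reads that could be assigned to neither a gene nor its copy are not restored by this sum. It therefore cannot show what their loss meant for the levels or fold changes.

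Gapdh, which is not among the 10 genes and encodes the glyceraldehyde-3-phosphate dehydrogenase of the same pathway, behaved differently. It had 350 such pseudogenes, 310 of them with reads, and these drew 186227 counts against 7743 for Gapdh itself, a 24.1-fold excess. Gm13394 (chromosome 2) alone had 146263 counts and differed from Gapdh (chromosome 6) at 1 of 999 aligned bases, the base in capitals above. The level of Gapdh given further on carries that limit.

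The samples held between 42098649 and 48095239 counts, and 18234 genes passed the filter on low counts. Ythdc1 itself was at 56.8, 69.6 and 69.6 CPM (counts scaled to a common sample total, with TMM factors) in Ythdc1Δ/Δ samples, against 76.0, 72.6 and 92.5 CPM in Ythdc1+/+ samples, with a log2 fold change of -0.30 (edgeR adjusted p = 0.521). Counts of the whole gene do not separate deleted from intact exons, so this value does not measure the deletion. The paper reported the knockout at the protein level, by Western blot of stem and progenitor (LSK) cells and immunofluorescence of long-term HSCs. Of 14 HSC and progenitor markers all passed the filter and none was at 0 in every library, and their summed level was 2247 to 2444 CPM in Ythdc1Δ/Δ samples and 2487 to 2800 CPM in Ythdc1+/+ samples. The 15 granulocyte markers were far more abundant, at 13256 to 24923 CPM in Ythdc1Δ/Δ samples and 11171 to 14417 CPM in Ythdc1+/+ samples. Mpo, a myeloid enzyme that progenitors also make, contributed most to that sum in 4 samples, and Ngp, a granule protein of neutrophils, exceeded it in KO209 (3445 against 2222 CPM) and WT207 (2489 against 2064 CPM). In bulk RNA, fewer cells of a type and less RNA per cell cannot be told apart.

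The question for the glycolytic enzymes was whether their mRNA differed between Ythdc1Δ/Δ and Ythdc1+/+ HSCs. All 10 were expressed in every library, and mean levels were higher in Ythdc1Δ/Δ HSCs for 9 of them, by log2 fold changes of 0.04 for Hk1 to 0.32 for Ldha, while Pfkl was at -0.03. None of the 10 differed at an adjusted p under 0.05, at which 0.137% of all genes tested were called (edgeR's quasi-likelihood test, 25 of 18234 genes). None reached an unadjusted p under 0.05 either, which 4.28% of all genes did with a higher and 5.2% with a lower level in Ythdc1Δ/Δ HSCs. That count of 0 was 6 without KO209, all 6 with a higher level, as 7.78% of all genes then had, and it remained 0 when any other single sample was left out. DESeq2 called 0 of the 10 as well, against 1.21% of all genes. Of all genes tested, 48.9% had a log2 fold change above 0 and the median was -0.01, whereas the median of the 10 enzymes was 0.20. The samples of the genotypes did not overlap for Pgk1 and Eno1, both higher in Ythdc1Δ/Δ HSCs, which 7.75% of all genes showed, and for none in the lower direction, which 8.59% of all genes showed.

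**Figure D1:**
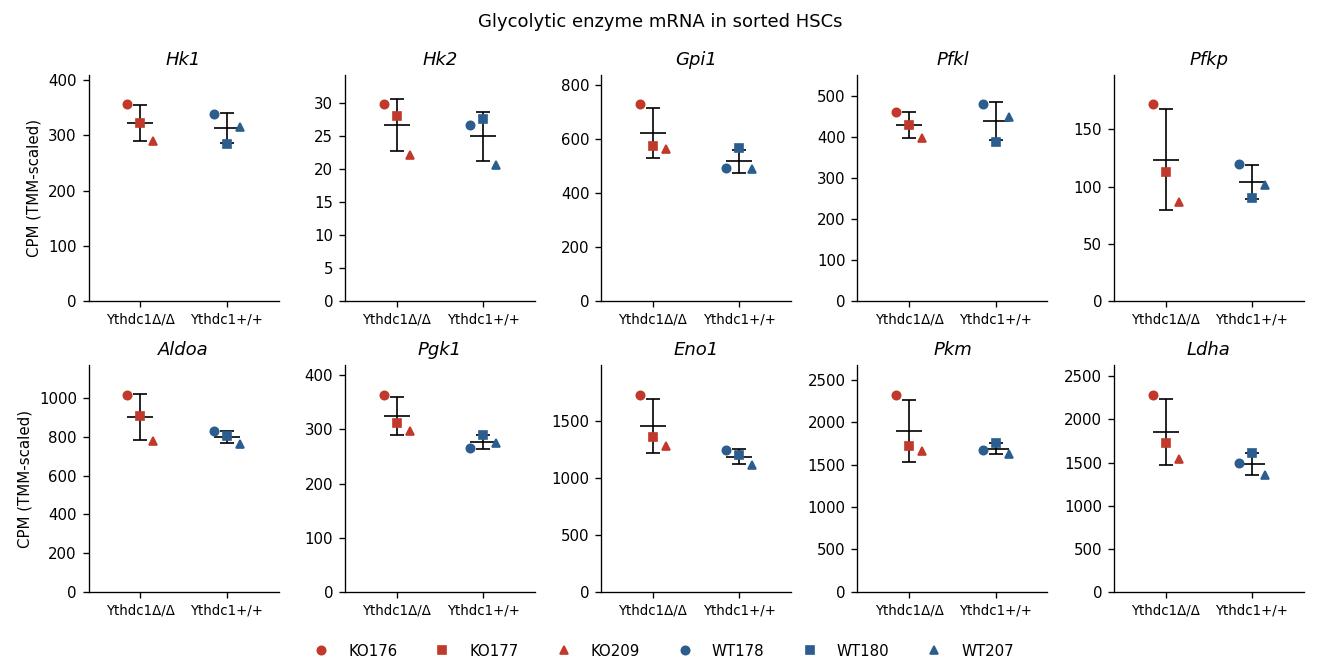
CPM (vertical axes, each starting at 0) of the 10 glycolytic enzymes in the 3 Ythdc1Δ/Δ samples (red, left) and the 3 Ythdc1+/+ samples (blue, right) of each panel, with the mean and SD as black bars. KO176 is the highest of the 6 samples in 9 panels, and only Pgk1 and Eno1 show no overlap between the genotypes.

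Hexokinase phosphorylates glucose in the first step, and Hk1 was the more abundant of its 2 genes among the 10. Per kilobase of exon length Hk3, a hexokinase gene outside the 10, was above Hk1, at 55.0 ± 15.02 CPM in Ythdc1Δ/Δ and 40.8 ± 8.06 CPM in Ythdc1+/+ HSCs (SD, n = 3 each), and it exceeded Hk1 in all samples except WT207. Hk1 (chr10:62268855-62379908 of mm10, minus strand) was at 356, 321 and 290.2 CPM in KO176, KO177 and KO209, against 339, 285 and 314 CPM in WT178, WT180 and WT207. The samples of the genotypes overlapped, with KO176 the highest and WT180 the lowest, and the log2 fold change was 0.04 ± 0.13 (SE; edgeR adjusted p = 0.936). Hk2 (chr6:82725025-82774454), the insulin- and hypoxia-responsive hexokinase, was at 29.8, 28.1 and 22.2 CPM in Ythdc1Δ/Δ samples, against 26.6, 27.6 and 20.7 CPM in Ythdc1+/+ samples. KO209 and WT207 were the lowest of their genotypes, and the log2 fold change was 0.10 ± 0.16 (SE; edgeR adjusted p = 0.879). The 95% confidence interval of the fold ran between 0.839 and 1.36 for Hk2 and between 0.848 and 1.26 for Hk1, so that a doubling lay outside it.

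Gpi1 (chr7:34201330-34230336) encodes glucose-6-phosphate isomerase, which turns glucose 6-phosphate into fructose 6-phosphate. Its level was 729, 574 and 562 CPM in Ythdc1Δ/Δ samples, against 495, 568 and 489 CPM in Ythdc1+/+ samples. KO176 stood above the other 5 samples, and KO209 fell below WT180. The log2 fold change was 0.27 ± 0.14 (SE; edgeR adjusted p = 0.596), and it was 0.14 without KO176.

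Phosphofructokinase commits fructose 6-phosphate to glycolysis, and it was encoded mainly by the liver-type gene Pfkl, with less of the platelet-type gene Pfkp. Per kilobase of exon length Pfkm, a phosphofructokinase gene outside the 10, had a higher mean than Pfkp. It was at 13.6 ± 0.775 CPM in Ythdc1Δ/Δ and 14.4 ± 1.46 CPM in Ythdc1+/+ HSCs (SD, n = 3 each). Without division by length Pfkm was below Pfkp, with means of 45.5 and 48.1 CPM. Pfkl (chr10:77986947-78010083) was at 460.3, 429 and 397 CPM in Ythdc1Δ/Δ samples, against 479, 387 and 449 CPM in Ythdc1+/+ samples. It was the only one of the 10 enzymes with its highest value in a Ythdc1+/+ sample, WT178, and its log2 fold change was -0.03 ± 0.13 (SE; edgeR adjusted p = 0.959). Pfkp (chr13:6579768-6648777) was at 172, 112 and 86.3 CPM in Ythdc1Δ/Δ samples, against 119.97, 90.4 and 102 CPM in Ythdc1+/+ samples. It had the widest spread of the 10 within Ythdc1Δ/Δ, where KO176 was 1.99-fold above KO209, and KO209 was the lowest of all 6 samples. Its log2 fold change was 0.25 ± 0.24 (SE; edgeR adjusted p = 0.779) with all samples and -0.06 without KO176.

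Aldoa (chr7:126795234-126800751) encodes aldolase A, which splits fructose 1,6-bisphosphate into its triose phosphates. It was at 1016, 909 and 779.6 CPM in Ythdc1Δ/Δ samples, against 828, 806 and 764 CPM in Ythdc1+/+ samples. KO176 and KO177 were above every Ythdc1+/+ sample and KO209 lay within their range, with a log2 fold change of 0.17 ± 0.14 (SE; edgeR adjusted p = 0.724).

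Pgk1 and Eno1 were the enzymes whose samples did not overlap. Pgk1 (chrX:106187100-106203699) encodes phosphoglycerate kinase, the first ATP-yielding step. It was at 364, 311 and 298 CPM in Ythdc1Δ/Δ samples, against 265, 290.45 and 276 CPM in Ythdc1+/+ samples, and the gap between the nearest samples, KO209 and WT180, was narrow. The log2 fold change was 0.23 ± 0.12 (SE; edgeR adjusted p = 0.597). Eno1 (chr4:150236721-150248879) encodes enolase 1, which forms phosphoenolpyruvate. It was at 1726, 1356 and 1277 CPM in Ythdc1Δ/Δ samples, against 1242, 1199 and 1116.5 CPM in Ythdc1+/+ samples. KO209 stood just above WT178, and the log2 fold change was 0.29 ± 0.15 (SE; edgeR adjusted p = 0.577), the lowest adjusted p of the 10. Without KO176 the log2 fold changes were 0.14 for Pgk1 and 0.16 for Eno1.

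Pkm (chr9:59656368-59679375) encodes the M-type pyruvate kinase, which makes pyruvate and ATP and whose M1 and M2 isoforms arise by splicing and are not separated by counts per gene. It was at 2324, 1717 and 1661 CPM in Ythdc1Δ/Δ samples, against 1675, 1756 and 1628 CPM in Ythdc1+/+ samples. Only KO176 stood apart from the rest, the log2 fold change was 0.17 ± 0.16 (SE; edgeR adjusted p = 0.769), and it was 0.01 without that sample. Another annotated gene shares 15.3% of the exon bases of Pkm, which counts without strand could not separate.

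Ldha (chr7:46841475-46855627) encodes the A subunit of lactate dehydrogenase, which turns pyruvate into lactate. It was at 2284, 1731 and 1545 CPM in Ythdc1Δ/Δ samples, against 1491, 1609.6 and 1356 CPM in Ythdc1+/+ samples. KO176 and KO177 were above every Ythdc1+/+ sample, and KO209 was below WT180. The log2 fold change was 0.32 ± 0.17 (SE; edgeR adjusted p = 0.590), the highest of the 10, with a 95% confidence interval of the fold between 0.962 and 1.62, and it was 0.15 without KO176.

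**Figure D2:**
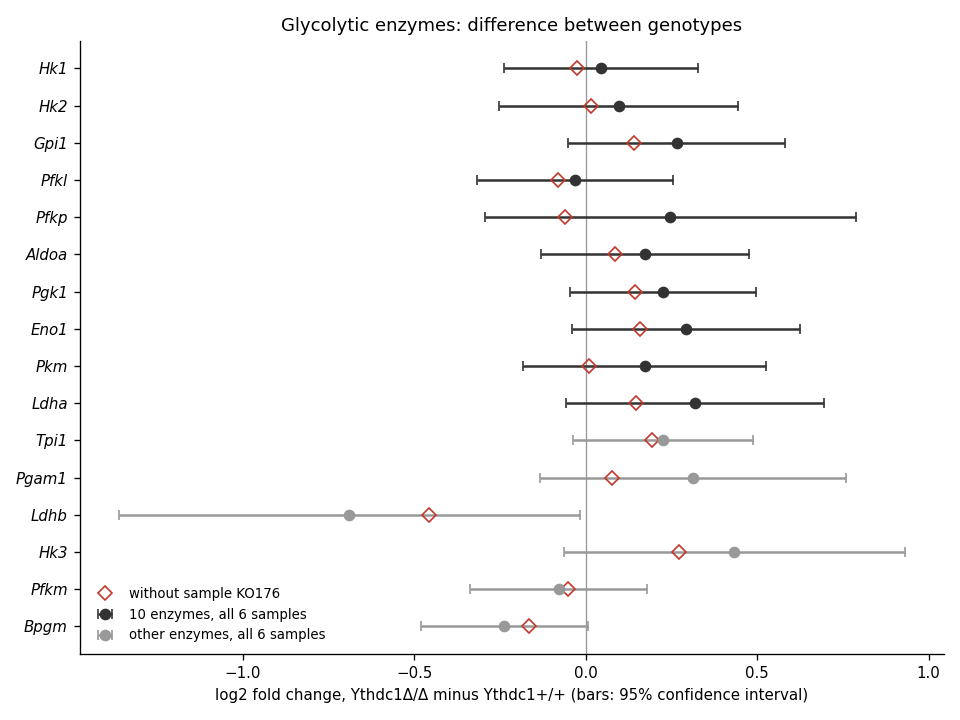
Log2 fold changes (Ythdc1Δ/Δ minus Ythdc1+/+, horizontal axis) of the 10 enzymes (black) and of the other enzymes at 10 or more CPM per kilobase in Ythdc1+/+ HSCs (grey), with 95% confidence intervals. The intervals of all 10 enzymes include 0, and without KO176 (open red diamonds) the values of the 10 lie closer to 0, except that of Pfkl.

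A single sample thus carried much of the difference. KO176 was the highest of the 6 samples for 9 of the 10 enzymes, whereas it was the highest for 26.6% of all genes tested. It was above every Ythdc1+/+ sample for 9 enzymes, KO177 for 6 and KO209 for 2, and KO209 was below every Ythdc1+/+ sample for 1, Pfkp. Together the 10 enzymes made up 9459.9, 7489 and 6917 CPM in KO176, KO177 and KO209, against 6961, 7019 and 6516 CPM in WT178, WT180 and WT207. On this scale KO209 was below WT178 and WT180, so that the genotypes overlapped. As a share of all counts without the TMM scaling the enzymes took 0.852%, 0.731% and 0.745% in Ythdc1Δ/Δ samples, against 0.689%, 0.703% and 0.689% in Ythdc1+/+ samples, which did not overlap. The TMM factors of the Ythdc1Δ/Δ samples were 0.901, 0.978 and 1.079, and those of the Ythdc1+/+ samples were 0.990, 1.003 and 1.058. Without KO176 the median log2 fold change of the 10 was 0.05, with 7 of 10 above 0. It was 0.24 without KO177, 0.28 without KO209 and 0.18 to 0.20 without 1 of the Ythdc1+/+ samples. KO176 was singled out for its high values, so leaving it out had to lower the fold changes of those 9 enzymes.

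The numbers of the samples fall into 2 ranges, which both genotypes share. Among KO176, KO177, WT178 and WT180 (2 per genotype), all 10 enzymes had a log2 fold change above 0, with a median of 0.25 and a range of 0.03 to 0.43. Between KO209 and WT207, the pair of the other range, 7 of 10 log2 ratios were above 0, with a median of 0.07 and a range of -0.24 to 0.20, and with 1 sample per genotype this has no replicate check. What the ranges stand for is not given in the labels. The libraries of a sample number also differed from each other. The median gap between them was 0.06 (Eno1) to 0.18 (Aldoa) on the log2 scale, against a largest gap between Ythdc1Δ/Δ samples of 0.21 (Pfkl) to 0.995 (Pfkp) and between Ythdc1+/+ samples of 0.11 (Pkm) to 0.42 (Hk2). The largest gaps between the libraries of 1 sample were those of Hk2 (0.50) and Hk1 (0.38), both in KO177, and for Aldoa the median gap between libraries exceeded the 0.12 between the farthest Ythdc1+/+ samples.

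Levels of different genes were compared per kilobase of exon length. Pgk1, Eno1, Pkm and Gpi1 have near-identical pseudogenes and may lack reads that could not be assigned, whereas no pseudogene was found for Hk1, Hk2, Pfkl or Pfkp. The effect on the order was not tested. The exon length also exceeded the coding length unequally, at 13401 against 2352 bases for Pfkp and 2911 against 1254 for Aldoa. Without division by length, the mean of Pkm (1687 CPM) was above that of Ldha (1486 CPM) in Ythdc1+/+ HSCs. That of Eno1 (1186 CPM) was likewise above that of Aldoa (800 CPM), so the order given here depends on the length used. Of the 10 enzymes and 15 other glycolytic enzymes and isozymes that passed the filter, Ldha was the most abundant, at 559.8 ± 116 CPM per kilobase in Ythdc1Δ/Δ and 449 ± 38.3 in Ythdc1+/+ HSCs (SD, n = 3 each). It was followed by Pkm (379.995 ± 73.5 in Ythdc1Δ/Δ and 337 ± 12.9 CPM per kilobase in Ythdc1+/+ HSCs), Aldoa (309.7 ± 40.7 in Ythdc1Δ/Δ and 275 ± 11.1 in Ythdc1+/+ HSCs) and Eno1 (270.1 ± 44.6 in Ythdc1Δ/Δ and 220.4 ± 11.8 in Ythdc1+/+ HSCs). In Ythdc1+/+ samples each of Ldha, Pkm and Aldoa was above the next gene in every sample, and Eno1 overlapped with Tpi1, the triose phosphate isomerase. Tpi1 and Pgam1, the phosphoglycerate mutase, ranked between Eno1 and Pgk1, which was at 144 ± 15.5 CPM per kilobase in Ythdc1Δ/Δ and 123 ± 5.62 in Ythdc1+/+ HSCs. Gpi1 ranked next, at 96.4 ± 14.4 CPM per kilobase in Ythdc1Δ/Δ and 80.2 ± 6.84 in Ythdc1+/+ HSCs. The hexokinase and phosphofructokinase genes stood lower. Pfkl was at 64.3 ± 4.73 CPM per kilobase in Ythdc1Δ/Δ and 65.7 ± 7.03 in Ythdc1+/+ HSCs, and Hk1 was at 37.8 ± 3.84 in Ythdc1Δ/Δ and 36.6 ± 3.17 in Ythdc1+/+ HSCs. Pfkp was at 9.22 ± 3.28 CPM per kilobase in Ythdc1Δ/Δ and 7.77 ± 1.11 in Ythdc1+/+ HSCs, and Hk2 was at 4.47 ± 0.667 in Ythdc1Δ/Δ and 4.19 ± 0.629 in Ythdc1+/+ HSCs. The first 8 ranks were held by the same genes in the same order in both genotypes.

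**Figure D3:**
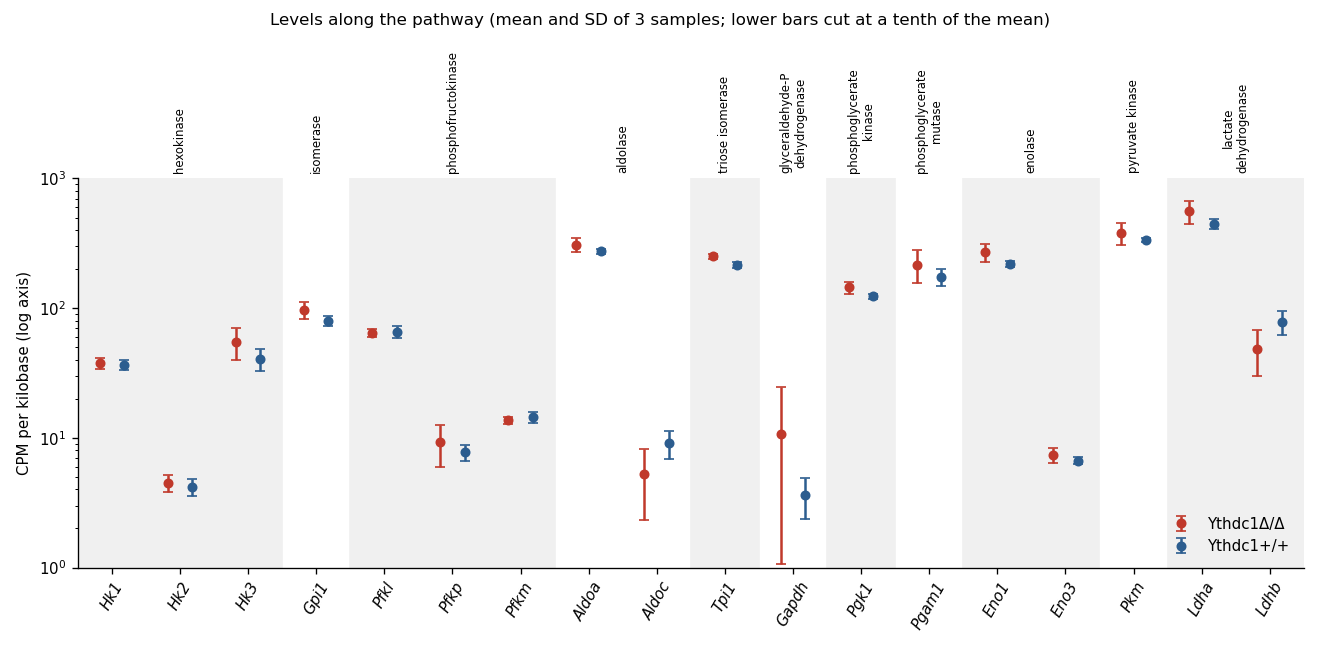
Mean level per kilobase (log axis) of the main enzymes of each step in Ythdc1Δ/Δ (red, left) and Ythdc1+/+ HSCs (blue, right), with the SD of 3 samples, in the order of the pathway. Ldha, Pkm and Aldoa lead and the hexokinase and phosphofructokinase genes are low. Ldhb and Aldoc are lower in Ythdc1Δ/Δ HSCs, and the bar of Gapdh, whose SD in Ythdc1Δ/Δ exceeds its mean, is cut at the bottom.

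The remaining enzymes of the pathway differed in direction. Of 20 other glycolytic enzymes and isozymes, 15 passed the filter and 0 were called. Of these 15, 8 had a log2 fold change above 0 and the median was 0.14. Tpi1 was at 729, 671 and 681 CPM in Ythdc1Δ/Δ samples, against 566, 591 and 623 CPM in Ythdc1+/+ samples, without overlap, and its log2 fold change was 0.23 (edgeR adjusted p = 0.587). Pgam1 was at 563, 404 and 322 CPM in Ythdc1Δ/Δ samples, against 335, 402 and 300.1 CPM in Ythdc1+/+ samples, with a log2 fold change of 0.31 (edgeR adjusted p = 0.659), which overlapped. Hk3, a hexokinase of myeloid cells, was at 247, 220.0 and 141 CPM in Ythdc1Δ/Δ samples, against 173, 160.3 and 117 CPM in Ythdc1+/+ samples, with a log2 fold change of 0.43 (edgeR adjusted p = 0.579). In contrast, Ldhb, the B subunit of lactate dehydrogenase, was at 50.3, 70.7 and 109 CPM in Ythdc1Δ/Δ samples, against 121, 99.1 and 150.1 CPM in Ythdc1+/+ samples. KO209 lay within the Ythdc1+/+ range, and the log2 fold change was -0.69 ± 0.29 (SE; edgeR adjusted p = 0.512).

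Aldoc, aldolase C, was at 9.11, 14.8 and 28.0 CPM in Ythdc1Δ/Δ samples, against 29.4, 22.3 and 37.0 CPM in Ythdc1+/+ samples, with a log2 fold change of -0.77 (edgeR adjusted p = 0.643). Bpgm, which makes 2,3-bisphosphoglycerate and is best known in red cells, did not overlap, at 37.2, 42.9 and 43.1 CPM in Ythdc1Δ/Δ samples, against 49.6, 49.1 and 46.7 CPM in Ythdc1+/+ samples (log2 fold change -0.24, edgeR adjusted p = 0.532). Gapdhs, the sperm-type paralog of Gapdh, did not overlap either, at a low 0.989 to 1.21 CPM in Ythdc1Δ/Δ and 1.601 to 1.74 CPM in Ythdc1+/+ samples (log2 fold change -0.60, edgeR adjusted p = 0.425). Gapdh was at 111, 10.99 and 9.92 CPM in Ythdc1Δ/Δ samples, against 11.4, 12.6 and 20.8 CPM in Ythdc1+/+ samples, and its log2 fold change was 1.55 with all samples and -0.52 without KO176. Pfkm, the muscle-type phosphofructokinase, and Eno3, the muscle-type enolase, had log2 fold changes of -0.08 and 0.14. Ldhd, Pgam2, Ldhc, Eno2 and Pklr were at 7.34 CPM or less in every sample, with log2 fold changes between -0.46 (Eno2) and 0.48 (Ldhc).

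Ratios of isozymes within a sample do not depend on the scaling of the libraries, and 6 of them were compared with a 2-sided exact permutation test, whose smallest possible p with 3 samples against 3 is 0.1. Ldhb mRNA was at 0.0464, 0.0862 and 0.148 of the level of Ldha per kilobase in KO176, KO177 and KO209, against 0.172, 0.130 and 0.233 in WT178, WT180 and WT207. KO209 exceeded WT180, so the genotypes overlapped. The mean log2 ratio was -3.57 ± 0.84 in Ythdc1Δ/Δ and -2.53 ± 0.42 in Ythdc1+/+ samples (SD, n = 3 each), a difference of -1.04 (exact permutation p = 0.2, adjusted over the 6 ratios p = 0.6). Aldoc to Aldoa differed by -1.06 (exact permutation p = 0.3, adjusted p = 0.6), with KO176 at 0.0080 and WT207 at 0.0431 as the extremes. Hk3 to Hk1 differed by 0.37 (exact permutation p = 0.3, adjusted p = 0.6), Pfkp to Pfkl by 0.23 (exact permutation p = 0.5, adjusted p = 0.75), Hk2 to Hk1 by 0.05 (exact permutation p = 0.8, adjusted p = 0.8) and Pfkm to Pfkl by -0.05 (exact permutation p = 0.7, adjusted p = 0.8). Without KO176 the differences were -0.62 for Ldhb to Ldha and -0.58 for Aldoc to Aldoa.

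**Figure D4:**
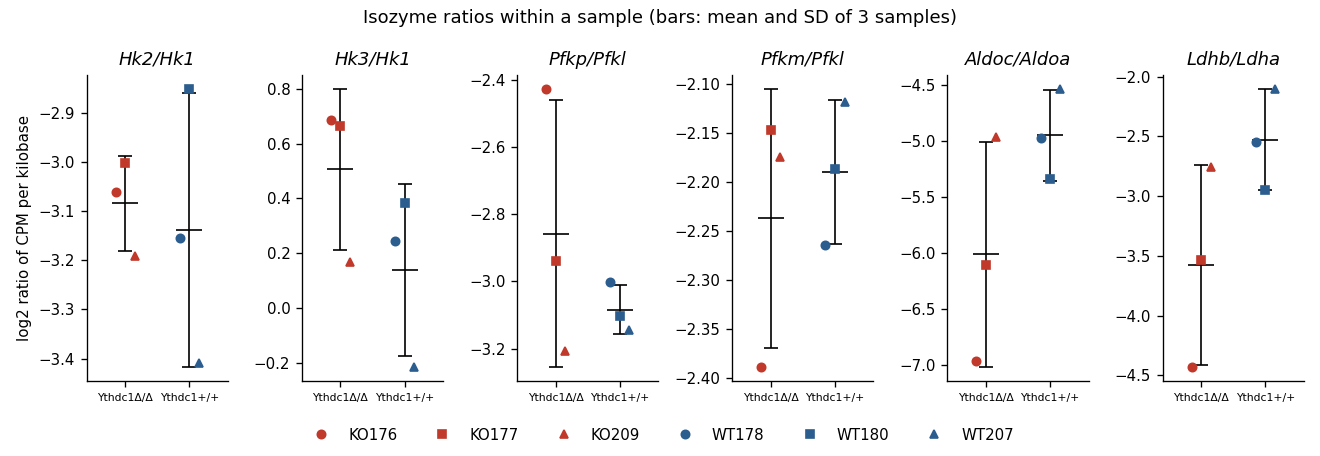
Log2 ratio of isozymes per kilobase (vertical axes with separate scales that do not start at 0) in the Ythdc1Δ/Δ (red, left) and Ythdc1+/+ samples (blue, right), with the mean and SD of 3 samples. All 6 ratios overlap between the genotypes, and KO176 is the lowest sample for Aldoc/Aldoa and Ldhb/Ldha.

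Glucose enters and lactate leaves the cell through transporters, and pyruvate enters the mitochondrion through a carrier and is oxidized by pyruvate dehydrogenase. Of 8 transporter genes 6 had a log2 fold change above 0, with a median of 0.13, and 0 were called. Slc16a1, which encodes the lactate transporter MCT1, was at 87.3, 72.1 and 79.0 CPM in Ythdc1Δ/Δ samples, against 51.0, 61.4 and 48.5 CPM in Ythdc1+/+ samples, without overlap. Its log2 fold change was 0.57 ± 0.13 (SE; edgeR adjusted p = 0.194), the largest relative to its error among the genes around glycolysis, and 0.50 without KO176. DESeq2 gave Slc16a1 an adjusted p of 0.022, and over all alternatives its adjusted p was between 0.00774 and 0.649. Bsg, the chaperone of the lactate transporters, Slc16a3, the transporter MCT4, and Slc2a8, the glucose transporter GLUT8, had log2 fold changes of 0.21, 0.16 and -0.15.

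Of 14 genes of pyruvate dehydrogenase and its entry, 10 had a log2 fold change above 0, the median was 0.16, and 0 were called. The kinases that switch pyruvate dehydrogenase off differed in direction. Pdk2 was at 33.3, 38.8 and 40.3 CPM in Ythdc1Δ/Δ samples, against 51.1, 49.1 and 49.6 CPM in Ythdc1+/+ samples, without overlap (log2 fold change -0.41 ± 0.11 SE, edgeR adjusted p = 0.285). Pdk1 was at 123, 119.7 and 113 CPM in Ythdc1Δ/Δ samples, against 91.6, 108 and 91.7 CPM in Ythdc1+/+ samples, without overlap (log2 fold change 0.29 ± 0.11 SE, edgeR adjusted p = 0.453). Pdha1, a catalytic subunit of the complex, and Mpc1, a subunit of the pyruvate carrier, had log2 fold changes of 0.29 and 0.27, and 16.1% and 23.1% of their exon bases are shared with another gene.

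The pentose phosphate pathway branches off at glucose 6-phosphate and supplies NADPH and ribose. Of its 8 genes 7 had a log2 fold change above 0, the median was 0.19, near the 0.20 of the 10 enzymes, and 0 were called. Without KO176 the median was 0.05. Rpe, an epimerase, was at 49.3, 47.2 and 52.8 CPM in Ythdc1Δ/Δ samples, against 44.8, 37.2 and 40.1 CPM in Ythdc1+/+ samples (log2 fold change 0.29, edgeR adjusted p = 0.453). G6pdx, the entry enzyme, Pgd and Taldo1 had log2 fold changes of 0.23, 0.20 and 0.18. Enzymes that set the level of fructose bisphosphates (6 tested of 7) were split evenly, 3 above 0 and 3 below, with a median of 0.04 and 0 called. Fbp1, a gluconeogenic phosphatase, Tigar, Pfkfb1 and Pfkfb3, which act on fructose 2,6-bisphosphate, had log2 fold changes of -0.18, 0.36, 0.22 and 0.10.

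Since HIF-1 drives many glycolytic genes in hypoxia, 22 other genes of the hypoxia response were set beside the 10 enzymes. Of these, 8 had a log2 fold change above 0, the median was -0.09, and 0 were called. Epas1, which encodes HIF-2α, was at 0.506 to 0.686 CPM in Ythdc1Δ/Δ and 0.120 to 0.363 CPM in Ythdc1+/+ samples (log2 fold change 1.16, edgeR adjusted p = 0.367), and Ero1l, an oxidase of the endoplasmic reticulum, had a log2 fold change of 0.46 (edgeR adjusted p = 0.425). Ankrd37 and Ndrg1, known as hypoxia-induced genes, had log2 fold changes of -0.62 and -0.32 (edgeR adjusted p = 0.429 and 0.484). The mean of the hypoxia list differed little between samples, from -0.05 in KO177 to 0.07 in WT207 on the log2 scale relative to the 6 samples.

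ACGTG, a form of the core of the HIF-1 binding motif, was looked for on both strands. The windows spanned 250 bases before to 50 bases after each gene's start (RefSeq, GRCm38.p6). The 10 genes had 17 windows, some of which overlap, and 7 of these windows, belonging to 6 genes (Hk1, Hk2, Aldoa, Pgk1, Pkm and Ldha), held the letters, as did 19.6% of the 32851 windows of all genes. The E-box CACGTG, which contains ACGTG on both strands, was in 1 window of the 10 genes, that of Ldha, and in 7.15% of all windows. The GC box GGGCGG was in 11 of the 17 and in 35.7% of all. Gpi1, Pfkl, Pfkp and Eno1 had no match to ACGTG in their windows. The other form of the core, GCGTG, was not looked for in any window and is not marked. Windows of 3 genes are printed with ACGTG in capitals on either strand. That of Ldha (chr7:46845554-46845853, plus strand) is shown for its 5 matches, 4 of which form 2 E-boxes, that of Pgk1 (chrX:106186850-106187149, plus strand) for its 2 matches in a gene without overlap between the genotypes, and that of Hk2 (chr6:82774405-82774704, minus strand) for its 2 matches in a gene near a fold change of 0.

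Ldha: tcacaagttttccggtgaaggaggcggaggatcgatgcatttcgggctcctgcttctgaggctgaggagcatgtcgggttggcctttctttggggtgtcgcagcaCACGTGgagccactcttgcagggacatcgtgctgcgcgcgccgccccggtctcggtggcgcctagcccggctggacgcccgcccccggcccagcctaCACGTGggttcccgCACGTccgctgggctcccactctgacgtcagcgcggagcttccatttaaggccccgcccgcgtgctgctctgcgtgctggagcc
Pgk1: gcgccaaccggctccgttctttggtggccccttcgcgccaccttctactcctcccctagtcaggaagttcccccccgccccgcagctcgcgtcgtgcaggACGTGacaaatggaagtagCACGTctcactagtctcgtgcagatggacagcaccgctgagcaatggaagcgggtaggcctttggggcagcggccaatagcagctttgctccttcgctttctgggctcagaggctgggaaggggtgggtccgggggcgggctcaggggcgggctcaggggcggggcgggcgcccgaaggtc
Hk2: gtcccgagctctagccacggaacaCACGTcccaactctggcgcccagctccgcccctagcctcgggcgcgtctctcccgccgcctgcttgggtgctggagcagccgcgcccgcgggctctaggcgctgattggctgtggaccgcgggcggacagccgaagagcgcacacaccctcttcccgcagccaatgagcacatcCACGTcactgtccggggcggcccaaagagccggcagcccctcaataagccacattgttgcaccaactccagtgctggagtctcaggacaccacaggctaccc

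A match is a description of these letters and no evidence of binding. Ldha had 5 matches, as each of its 2 E-boxes counts on both strands, and the highest log2 fold change of the 10 (0.32). Pgk1 and Hk2, with 2 matches each at separate places, had 0.23 and 0.10. Hk1 and Pkm, each with 2 matches in 1 of their windows, had 0.04 and 0.17, and Aldoa, with 1 match in each of 2 overlapping windows, had 0.17. Of the genes with none, Eno1 had 0.29, Gpi1 had 0.27, Pfkp had 0.25 and Pfkl had -0.03.

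The level of the 10 enzymes was set beside other lists in each sample, as the mean log2 CPM relative to the 6 samples. For the 10 enzymes it was 0.33, 0.04 and -0.12 in KO176, KO177 and KO209, against -0.03, -0.08 and -0.15 in WT178, WT180 and WT207. The 15 granulocyte markers were at 0.61, 0.01 and -0.0049 in the Ythdc1Δ/Δ samples, against -0.06, -0.35 and -0.20 in the Ythdc1+/+ samples, so that the mean of KO176 led in both lists. Single markers differed in this. Mpo was highest in KO176, at 10914 CPM against 2222 CPM in KO209. Ngp and S100a8 were highest in KO209, at 3445 and 2162 CPM against 3307 and 1971 CPM in KO176. All 15 granulocyte markers had a log2 fold change above 0 and 0 were called. Their median was 0.44 with all samples and 0.21 without KO176. The 14 HSC and progenitor markers ran the other way, at -0.50, -0.27 and 0.06 in the Ythdc1Δ/Δ samples, against 0.21, 0.17 and 0.34 in the Ythdc1+/+ samples. Cell division genes were at 0.24, 0.10 and 0.12 in the Ythdc1Δ/Δ samples, against -0.19, -0.09 and -0.18 in the Ythdc1+/+ samples. Of these 20 genes 19 had a log2 fold change above 0, as did 48.9% of all genes tested, with a median of 0.33 (0.25 without KO176). Higher without overlap between the genotypes were 13 of the 20, as were 7.75% of all genes, and 0 were called. The flow cytometry described for these mice marks lineage cells with antibodies to B220, CD4, CD8, CD11b, Gr1 and Ter119, a gate that removes mature B, T, myeloid and erythroid cells from HSCs. The part of granulocyte RNA and of dividing cells in the levels of the 10 enzymes was not tested.

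**Figure D5:**
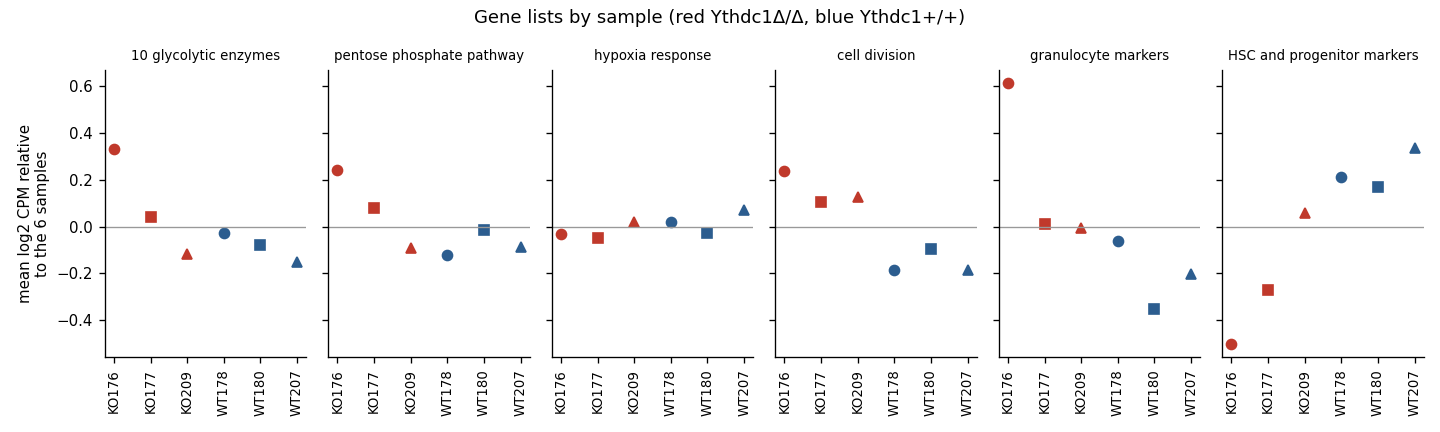
Mean log2 CPM relative to the 6 samples (vertical axis, shared) for 6 gene lists, with the Ythdc1Δ/Δ samples in red on the left and the Ythdc1+/+ samples in blue on the right of each panel. KO176 is the highest sample for the 10 enzymes, the pentose phosphate pathway, cell division and granulocyte markers, and the lowest for HSC and progenitor markers.

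The marker lists of other cell types had lower sums than the granulocyte list, which includes Mpo, an enzyme that progenitors also make. The 14 B cell markers summed to 1632 to 3376 CPM in Ythdc1Δ/Δ and 751 to 958 CPM in Ythdc1+/+ samples. Ighm made up most of this sum, with means of 1874 CPM in Ythdc1Δ/Δ and 667 CPM in Ythdc1+/+ samples. The means of Jchain were 289 CPM in Ythdc1Δ/Δ and 73.1 CPM in Ythdc1+/+ samples. The size of the sum therefore mostly reflects these genes. By single genes, 13 of 14 were higher and 0 were called, and Cd79b was at a log2 fold change of -0.06. Across the list the median was 0.69 (0.65 without KO176). Macrophage markers (10) summed to 115 to 225 CPM in Ythdc1Δ/Δ and 99.1 to 136 CPM in Ythdc1+/+ samples, with 9 of 10 higher and 0 called. The 12 erythroid markers summed to 810.0 to 1429 CPM in Ythdc1Δ/Δ and 1492 to 1722 CPM in Ythdc1+/+ samples, a sum made up mostly of Car2, with means of 1088 CPM in Ythdc1Δ/Δ and 1562 CPM in Ythdc1+/+ samples. Of the erythroid markers 10 of 12 nevertheless had a log2 fold change above 0, with a median of 0.29 (0.48 without KO176), and 0 were called. The 10 T and NK cell markers summed to 527 to 753 CPM in Ythdc1Δ/Δ and 636 to 784 CPM in Ythdc1+/+ samples, with 4 of the 8 tested above 0, and the 8 megakaryocyte markers to 198 to 346 CPM in Ythdc1Δ/Δ and 323 to 479.6 CPM in Ythdc1+/+ samples, with 0 of the 7 tested above 0, and 0 were called in either list.

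Endothelial and stromal markers were the only marker list with calls. The 14 markers summed to 177.9 to 189 CPM in Ythdc1Δ/Δ and 147 to 175 CPM in Ythdc1+/+ samples, of which Pecam1 and Pdgfrb made up most. Of the 13 tested, 11 had a log2 fold change above 0, the median was 0.93 (1.02 without KO176), and 4 were called higher, where 16 of all 18234 genes tested were called higher. These 4 were at low levels. Lepr, the leptin receptor of marrow stroma, was at 1.73, 1.78 and 1.76 CPM in Ythdc1Δ/Δ samples, against 0.144, 0.291 and 0.427 CPM in Ythdc1+/+ samples (log2 fold change 2.58, edgeR adjusted p = 0.0218). Adipoq, the fat cell hormone adiponectin, was at 2.18, 3.65 and 2.28 CPM in Ythdc1Δ/Δ samples, against 0.192, 0.187 and 0.512 CPM in Ythdc1+/+ samples (log2 fold change 3.16, edgeR adjusted p = 0.0218). Sparc and Cxcl14 had log2 fold changes of 1.78 and 2.81 (edgeR adjusted p = 0.0456 and 0.0218). No marker of any list was at 0 in every library, and the part of these cells in the levels of the 10 enzymes was not tested.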

How the data were processed

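Polyadenylated RNA of sorted HSCs was measured in 12 libraries, 2 for each of 3 Ythdc1Δ/Δ and 3 Ythdc1+/+ sample numbers. The authors deposited a table of counts per gene, not normalized, from featureCounts 2.0.1 on GENCODE vM23 exons of mm10, which ignored strand and had no option set for multimapped reads. The methods of the paper name Hisat2 as aligner. Counts of the libraries of a sample number were summed. Whether a number marks 1 mouse is not given in the sources used here, so p-values measure the spread between these samples. Genes passing filterByExpr (minimum count 10, minimum total 15) were tested with edgeR 4.0.16 (R 4.3.3, TMM scaling, robust quasi-likelihood fit, legacy option off), with Benjamini-Hochberg adjustment over 18234 genes, called at an adjusted p under 0.05. SE and intervals derive from the F statistic. CPM per kilobase uses the deposited exon length. Alternatives used DESeq2 1.42.0, limma 3.58.1 and other settings named in the closing section. Pseudogenes were matched with blastn 2.17.0 to GENCODE vM21 transcripts. Steps were tested on simulated data.

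The 10 genes and all gene lists were chosen with earlier results of these data known. All 10 enzymes and every other glycolytic enzyme past the filter are named, up to 4 genes of each other pathway list with the smallest p, and up to 3 pseudogenes per gene with the most counts. Isozymes that did not pass the filter are not reported here. Figures were drawn with matplotlib.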

Additional observations from a re-analysis of the deposited data

Results flagged for a closer look

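Among the 6 libraries of a genotype, 3 values of the 25 glycolytic enzymes lay far from the others, of 50 groups of libraries examined, where chance flags about 1 in 20. Gapdh was at 200.7 CPM in the second library of KO176 and at 13.7 CPM in the first, its nearest value in Ythdc1Δ/Δ HSCs, from 4401 and 292 counts of libraries of about equal depth. In the same libraries the pseudogenes of Gapdh had 13987 and 13123 counts. Gapdh was also at 33.3 CPM in the first library of WT207, with 13.1 CPM as the nearest value in Ythdc1+/+ HSCs and 9.45 CPM in the second library of WT207. Eno1 was at 1031 CPM in the second library of WT207, below the 1186 CPM of the nearest Ythdc1+/+ library. The cause of these values was not tested.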

How the results depend on the processing

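None of the 10 enzymes was called under any of 18 alternatives, and their lowest adjusted p was 0.073 (Eno1, 12 libraries as separate samples; 0.073 to 0.912 for Eno1 over all alternatives). None of the 10 reached an unadjusted p under 0.05 in the analysis reported, where 4.28% of all genes did with a higher level. Under the alternatives all enzymes that did had a higher level, and brackets give the share of all genes that did so too. There were 6 without KO209 (7.78%) and 4 with voomLmFit (6.23%). With 12 libraries as separate samples there were 4 (10.95%), and with the replicate block 4 (10.78%). The number range as a covariate gave 3 (6.35%) and no filter gave 3 (2.84%). There were 2 among KO176, KO177, WT178 and WT180 (4.95%), 1 with upper quartile scaling (4.45%) and 0 under the other alternatives (2.74% to 4.92%). Of 180 log2 fold changes of the 10 enzymes under these alternatives 173 kept their sign. Pfkl was at 0.033 without KO209 and WT207. Leaving out 1 sample at a time, the values ran between -0.026 and 0.116 for Hk1, -0.023 and 0.214 for Hk2, -0.120 and 0.039 for Pfkl, and -0.062 and 0.451 for Pfkp. The difference in the log2 ratio of Hk2 to Hk1 was -0.028 without KO209 and WT207 and ran between -0.082 and 0.197 with 1 sample left out, and that of Pfkm to Pfkl between -0.092 and 0.029. The count of called genes, 25, was 751 with 12 libraries as separate samples, 717 with the digit after the sample number as a replicate block, 131 with voomLmFit, 85 with the number range as a covariate, 221 with DESeq2, 73 without the filter, 3 with the stricter filter, 16 with upper quartile scaling and 15 with the legacy option, and 1 (without WT178) to 81 (without KO209) with a sample left out. Of the genes around glycolysis, 0 in the analysis reported, 2 were called with 12 libraries as separate samples and 2 with the replicate block (Slc16a1 and Pdk2), and 1 with DESeq2 (Slc16a1). The cause of these changes was not tested, except that separate libraries count repeats of a sample as replicates. RLE and upper quartile scaling moved the median of all genes by 0.01 and -0.01 on the log2 scale. Whether depth or the number of samples limits these comparisons was not tested.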
